A study of Mus musculus and Homo sapiens with 15 samples.

Results

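Transcript levels of 38 genes of the integrated stress response and the unfolded protein response were examined with and without arsenic trioxide (ATO). The material was tumours from W/W and C57 mice and cells of the human line U937. The labels give the p53 R282W mutation for the W/W mice and U937, not for the C57 samples. The genes were listed by symbol in 2 arms, with no threshold on a measured value. The ATF4 arm holds 20 genes controlled by the transcription factor ATF4, and the ER arm holds 18 genes of the endoplasmic reticulum (ER). These lists and the wider ones used below were chosen with earlier results of these data known. Counts set beside shares of all genes are therefore not independent of the data. All 38 were present in each of the 3 count tables, among 52340 genes for W/W mice, 56691 for C57 mice and 61806 for the human line U937. The W/W mice are homozygous for p53 R282W and bear T-cell lymphomas, and their thymus tumours, taken at day 150 of life, gave 3 water samples, 3 ATO samples labelled as progressing and 3 ATO samples labelled as regressing. All 9 W/W samples share the mutant genotype, so no comparison among them separates the mutation from its absence, and outcome and treatment are joined in each ATO group. The C57 samples are tumours from a cell-line graft model, labelled wild type, with 2 samples given phosphate-buffered saline (PBS) and 2 given ATO, and the labels do not name the grafted cells. U937, a human myeloid leukaemia line labelled as expressing p53 R282W, gave 1 library after PBS and 1 after ATO. The labels give no dose or time of ATO for any group. They number the replicates without saying that each came from a separate animal. The p-values therefore set differences against the spread between these samples, which may not be the spread between animals.

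The integrated stress response begins when a kinase of the eIF2 family is activated by amino acid shortage, haem loss, oxidative stress such as that from arsenicals, viral RNA or misfolded ER proteins. Phosphorylated eIF2 lowers general translation while favouring translation of ATF4, which then switches on genes for amino acid synthesis, amino acid uptake, redox balance and, through DDIT3 (CHOP) and TRIB3, cell death. The unfolded protein response has that same eIF2 branch through the kinase PERK, and adds the IRE1-XBP1 and ATF6 branches, which raise chaperones, foldases and the degradation machinery of the ER. XBP1 is also needed by antibody-secreting plasma cells, so a bulk tumour library holds signal from whichever cells are in the tissue.

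The promoters of the arms carry different short sequences. The ER stress element (ERSE) is CCAAT followed after 9 bases of any kind by CCACG, and its variant ERSE-II is ATTGG followed after 1 base by CCACG. They are bound by ATF6 and XBP1 with partner factors, and the C/EBP-ATF response element (CARE, TGATGNAAN) by ATF4 with a C/EBP partner. Both strands were searched from 250 bases before to 50 bases after each transcription start, in RefSeq promoters of GRCm38.p6 for mouse and at the MANE Select starts of GENCODE v44 on GRCh38 for human. In human, 8 of 17 ER-arm promoters held an ERSE or ERSE-II, against 0 of 20 ATF4-arm promoters, while an ERSE was present in 0.0997% and an ERSE-II in 0.0735% of 19060 promoters. A CARE was present in NUPR1, ASNS and CHAC1, 3 of 20 ATF4-arm promoters, and in 2.46% of all promoters. In mouse, where a gene can have several promoters, a gene counted if any of them matched, while background shares are per promoter. The ERSE or ERSE-II was found for 8 of 15 ER-arm genes and 0 of 18 ATF4-arm genes, with background shares of 0.119% and 0.0365%. A CARE was found for 5 of 18 ATF4-arm genes (Trib3, Nupr1, Asns, Chac1, Vldlr) and in 3.95% of 32851 promoters, shares that differ in unit. Of the 37 human and 33 mouse genes with a promoter searched, only HERPUD1 held both a CARE and an ERSE-II, in human (-177 to -169 and -117 to -107 from the start) and in mouse (-113 to -105 and -52 to -42). A further ER motif, the UPRE (TGACGTGG), was found in human HYOU1, where it overlaps an ERSE-II, and in mouse Vegfa, with background shares of 0.813% and 0.676%. A match describes these letters in this window only.

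The 250 bases before the start are shown for genes on which the comparisons below turn: HSPA5 and HSP90B1 for the ER arm, and HERPUD1 for the promoter with both motifs. Sequences run 5′ to 3′ on the gene's strand, and capitals mark the motif. The CARE lies on the opposite strand in HERPUD1, so it reads there as its reverse complement. HERPUD1 lies at chr16:56931892-56932141, HSPA5 at chr9:125241344-125241593 and HSP90B1 at chr12:103930160-103930409 of GRCh38, with HSPA5 on the minus strand and the others on the plus strand.
HERPUD1, CARE then ERSE-II: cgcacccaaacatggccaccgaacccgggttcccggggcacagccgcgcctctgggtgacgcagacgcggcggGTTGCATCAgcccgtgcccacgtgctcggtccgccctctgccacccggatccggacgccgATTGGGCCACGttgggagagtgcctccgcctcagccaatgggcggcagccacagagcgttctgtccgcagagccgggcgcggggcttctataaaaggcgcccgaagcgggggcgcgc
HSPA5, ERSE: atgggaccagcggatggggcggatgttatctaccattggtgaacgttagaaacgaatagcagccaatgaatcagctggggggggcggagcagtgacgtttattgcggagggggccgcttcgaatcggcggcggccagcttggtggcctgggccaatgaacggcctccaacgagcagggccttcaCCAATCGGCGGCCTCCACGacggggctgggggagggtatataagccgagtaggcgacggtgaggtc
HSP90B1, ERSE then ERSE on the opposite strand: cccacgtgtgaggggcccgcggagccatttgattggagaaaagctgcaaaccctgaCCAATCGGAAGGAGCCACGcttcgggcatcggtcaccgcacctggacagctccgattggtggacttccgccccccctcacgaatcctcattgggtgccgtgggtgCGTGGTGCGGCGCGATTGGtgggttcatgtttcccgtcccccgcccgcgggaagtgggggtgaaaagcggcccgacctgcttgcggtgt

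Total counts ran from 12800367 to 17550594 in the W/W libraries, from 12922147 to 15637644 in the C57 libraries, and were 17872972 (PBS) and 16454534 (ATO) in U937. Levels below are in CPM (counts scaled to library size), scaled by trimmed-mean (TMM) library sizes in the mouse tables and by total counts in U937. T-cell and thymocyte marker genes summed to 1375 to 1783 CPM in water, 4422 to 4905 in progressing and 6339 to 12302 in regressing tumours. In the C57 tumours they summed to 4613 to 8383 CPM. In water replicates 1, 2 and 3 the T-cell sums were 1375, 1783 and 1651 CPM and the B-cell marker sums 1700, 3492 and 286. Water replicates 1 and 2, from mice with T-cell lymphomas, thus held more B-cell than T-cell marker signal. In U937 the myeloid markers summed to 2420 CPM after PBS and 685 after ATO. The 6 human T-cell markers summed to 493 CPM after PBS, all of it from CD4, and to 271 after ATO. Of these, CD3D, CD3G, LCK and CD8A had 0 counts in both libraries. In these bulk samples, fewer cells of a type and less RNA per cell cannot be told apart.

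The comparison in U937 asks how a p53-mutant leukaemia line responds to ATO. The ATF4 arm and the ER chaperones parted in these libraries. Of the 19 ATF4-arm genes that averaged 1 CPM or more, 13 were at least 1.5-fold higher after ATO and the other 6 lay within 1.5-fold. Of the 18 ER-arm genes, 4 were at least 1.5-fold higher, 7 at least 1.5-fold lower and 7 within 1.5-fold. Over all 13722 genes with that mean level, 28.2% were at least 1.5-fold higher and 17.9% at least 1.5-fold lower. With 1 library per group there is no replicate check and no test. Intervals below are exact 95% binomial intervals and cover counting error only, as does every limit set by a count of 0.

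The transcription factors and regulators had the largest ratios, with 6 of 7 past 1.5-fold and a median log2 ratio of 3.09. NUPR1, a stress-induced chromatin protein, had 0 counts after PBS and 2305 after ATO, 0 and 140 CPM. Against a floor of 3 counts in the PBS library it was at least 835-fold higher, and the exact 95% interval of the ratio began at 678. DDIT3 (GRCh38 chromosome 12, 57516588 to 57521737), the pro-apoptotic factor CHOP, went from 83 to 1563 counts, 4.64 to 94.99 CPM, a ratio of 20.5 (interval 16.4 to 25.8). PPP1R15A, the GADD34 subunit that returns eIF2 to its unphosphorylated state, went from 26.8 to 396 CPM (14.8-fold), ATF5 from 48.3 to 419 CPM (8.67-fold) and TRIB3, a pseudokinase induced by ATF4 and CHOP, from 53.2 to 355 CPM (6.68-fold). Among all genes these 5 lay between percentiles 98.7 (TRIB3) and 99.99 (NUPR1) of the log2 ratio. ATF4 itself changed far less, from 329 to 542 CPM (1.65-fold, interval 1.60 to 1.70), and CEBPG, a dimer partner of ATF4, stood at 124 and 141 CPM. The smallest ratios in this group were those of ATF4 and its partner. DDIT3 overlaps MARS1 and ATF5 overlaps NUP62 on the opposite strand. Whether counting used strand was not given in the sources used here, so part of their reads could belong to the neighbour.

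Among amino acid genes the response was graded. CHAC1, which degrades glutathione, went from 57 to 387 counts, 3.19 to 23.5 CPM (7.38-fold). CTH, which makes cysteine, went from 24.6 to 99.0 CPM (4.02-fold) and SLC3A2, the shared heavy chain of amino acid exchangers, from 118 to 322 CPM (2.73-fold). Its partner SLC7A5, the leucine transporter LAT1, stood at 361 and 344 CPM. ASNS, asparagine synthetase and a classical ATF4 target with a CARE match, had 6 and 3 counts and was below the 1 CPM minimum, so no direction can be read for it. A long noncoding RNA with at most 17 counts overlaps ASNS on the same strand. How reads shared by such genes were counted was not given in the sources used here. Of the 5 enzymes of serine and one-carbon metabolism, PSAT1 went from 260 to 561 CPM (2.16-fold) and MTHFD2 from 232 to 406 CPM (1.75-fold). PHGDH (315 and 453 CPM), PSPH (53.5 and 61.4 CPM) and SHMT2 (363 and 372 CPM) stayed within 1.5-fold, and the median log2 ratio of the 5 was 0.52. Of the secreted factors and receptors, VEGFA went from 108 to 433 CPM (4.002-fold) and STC2 from 3 to 31 counts (11.2-fold, interval 3.501 to 57.4), while VLDLR stood at 114 and 131 CPM. Of the 4 groups of the arm, the serine enzymes lay closest to the median of all genes, which was 0.13 on the log2 scale.

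In the ER arm 3 of the 4 foldases and secreted ER proteins and 4 of the 8 chaperones were lower, and 2 of the 4 sensors were higher. PDIA4, a disulfide isomerase, went from 376 to 80.0 CPM (4.70-fold lower, interval 4.43 to 4.99) and PDIA6 from 625 to 150 CPM (4.16-fold lower). SDF2L1, a chaperone cofactor, went from 260 to 66 counts (3.63-fold lower), HYOU1 from 427 to 177 CPM (2.41-fold lower), HSP90B1 (GRP94) from 961 to 404 CPM (2.38-fold lower), MANF from 71.6 to 30.9 CPM (2.32-fold lower) and CALR, the lectin chaperone calreticulin, from 1916 to 1230 CPM (1.56-fold lower). HSPA5 (BiP), the master chaperone and the usual marker of ER stress, stood at 752 and 823 CPM, a ratio of 1.09 (interval 1.07 to 1.12). HERPUD1, a membrane protein of ER-associated degradation, went from 35.0 to 128 CPM (3.66-fold), DNAJB9, a BiP co-chaperone, from 13.5 to 45.0 CPM (3.34-fold), ERN1, which encodes the sensor IRE1, from 54.3 to 131 CPM (2.41-fold) and ATF6 from 21.8 to 33.7 CPM (1.55-fold). XBP1 (177 and 237 CPM) and EIF2AK3, which encodes PERK (58 and 55 counts), lay within 1.5-fold. Of the 7 genes that were lower, 5 have an ERSE or ERSE-II in the promoter window (HSP90B1, HYOU1, CALR, SDF2L1, PDIA6). Of the 6 within 1.5-fold that had a window, 2 have one (HSPA5, CRELD2). Of the 4 that were higher, HERPUD1 alone has either motif, and it also has the CARE printed above.

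**Figure D1:**
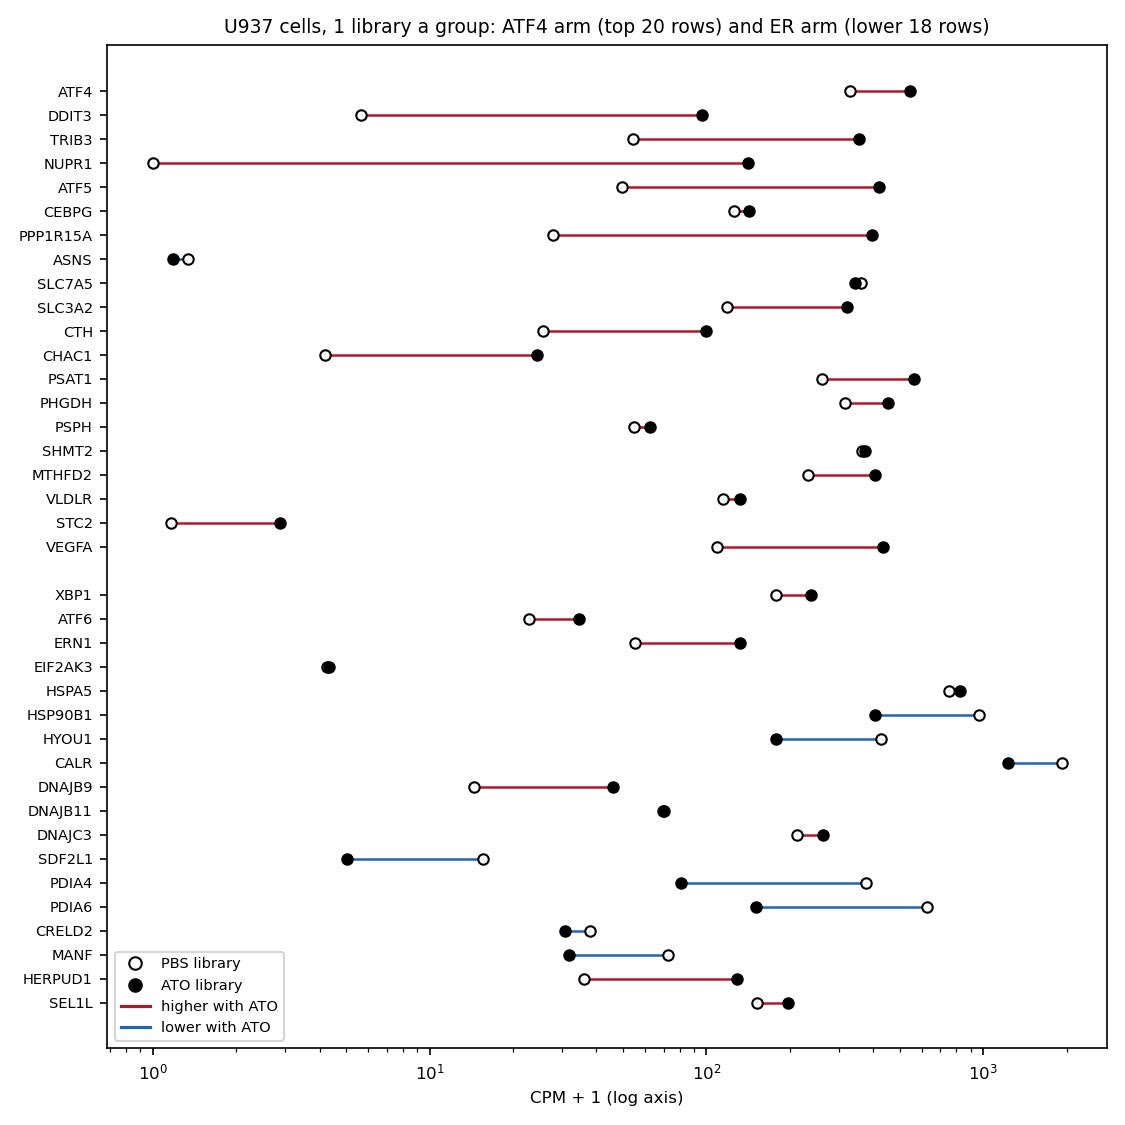
Level of each of the 38 genes in the U937 libraries after PBS (open points) and ATO (filled points), as CPM + 1 on a log axis, 1 library each, with the ATF4 arm above and the ER arm below. Lines run to the right for most ATF4-arm genes, the longest for NUPR1 (0 to 140 CPM), and to the left for PDIA4, PDIA6, HSP90B1, HYOU1, CALR, SDF2L1 and MANF.

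As arms, the median log2 ratio was 1.30 in the ATF4 arm and 0.01 in the ER arm. The mean log2(CPM + 1) of the ATF4 arm was 1.35 below that of the ER arm after PBS and 0.55 above it after ATO. TMM scaling lowers every U937 log2 ratio, by 0.20 at the median gene. Under it ATF4 (1.42-fold) and ATF6 (1.32-fold) did not reach 1.5-fold and STC2 averaged 0.966 CPM, under the minimum, which left 14 higher and 7 lower genes. Of the genes within 1.5-fold, CEBPG, PSPH, SHMT2, VLDLR, EIF2AK3 and HSPA5 had ratios just above 1 with total counts and just below 1 with TMM.

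Further genes of these pathways were listed beside the 38. Of 30 other integrated stress response genes with a mean of 1 CPM, 12 were higher and 3 lower, again beside 28.2% and 17.9% of all genes. The stress hormone GDF15 went from 3 to 1004 counts (364-fold, interval 124 to 1766), DDIT4, an inhibitor of mTORC1, from 12.6 to 180 CPM (14.3-fold) and ATF3 from 5.15 to 67.2 CPM (13.0-fold). The lower genes were ALDH18A1 of proline synthesis (217 to 43.2 CPM), MTHFD1L of mitochondrial folate metabolism (149 to 57.2 CPM) and LARS1, leucyl-tRNA synthetase (350 to 177 CPM). Of 24 other unfolded protein response genes, 5 were higher and 6 lower, shares that lie near those of all genes (28.2% and 17.9%). EDEM2 (82.8 to 26.3 CPM), ERO1A (253 to 85.1 CPM) and TXNDC5 (15.3 to 4.92 CPM) had the lowest ratios, and SYVN1, the ubiquitin ligase of ER-associated degradation, the highest (46.6 to 102 CPM). Of the 9 folding genes on that list 5 were lower, and of its 6 degradation genes 3 were higher.

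In W/W tumours the clearest change lay in the serine and one-carbon enzymes, 3 of which (Psat1, Shmt2, Mthfd2) fell in both ATO groups. With edgeR's quasi-likelihood test and Benjamini-Hochberg adjusted p, 7 of 37 tested genes passed an adjusted p under 0.05 in regressing against water, 1 higher and 6 lower, where 3.13% of 18119 genes passed higher, 4.57% lower and 7.7% in either direction. In progressing against water 6 passed, each of them lower, with a background of 4.77% higher and 7.13% lower. Between the outcomes 3 passed higher and 2 lower in regressing tumours, with a background of 6.45% and 6.18%. Over the 3 comparisons 11 genes passed in at least 1 and 27 in none. The comparisons with water share the same 3 water libraries. All libraries of 1 group lay above or below all of the other for 7 and 20 genes in regressing against water (19.3% and 20.9% of all genes), 0 and 9 in progressing against water (11.9% and 14.7%) and 6 and 6 between the outcomes (21.4% and 20.6%). The remaining gene, Chac1, had 2 to 31 counts per library and was not tested in this table.

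Shmt2 (chromosome 10, 127517123 to 127522444 on GRCm38), the mitochondrial serine hydroxymethyltransferase, stood at 316, 603 and 309 CPM in water, 104, 191 and 189 in progressing and 54.1, 61.0 and 56.0 in regressing tumours. The 3 groups did not overlap. Relative to water the log2 fold change was -2.84 (SE 0.38, edgeR adjusted p = 0.00531) with regression and -1.34 (SE 0.36, edgeR adjusted p = 0.0366) with progression. Regressing lay below progressing tumours by -1.501 (SE 0.36, edgeR adjusted p = 0.0278). Mthfd2, the next enzyme of that mitochondrial folate route, stood at 72.5, 106 and 98.0 CPM in water, 19.2, 20.5 and 29.3 in progressing and 23.7, 30.3 and 33.6 in regressing tumours. Every ATO library lay under every water library, and the ATO groups overlapped. The log2 fold change was -1.999 (SE 0.32, edgeR adjusted p = 0.00516) in progressing and -1.66 (SE 0.31, adjusted p = 0.0165) in regressing tumours.

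Psat1, the aminotransferase of serine synthesis, stood at 204, 399 and 296 CPM in water, 109, 129 and 81.7 in progressing and 77.2, 87.2 and 86.0 in regressing tumours, again with no overlap between water and ATO. On the log2 scale it fell by 1.49 with progression (SE 0.32, edgeR adjusted p = 0.0161) and fell by 1.84 with regression (SE 0.32, edgeR adjusted p = 0.0137). Phgdh, the first enzyme of that route, stood at 173, 635 and 229 CPM in water, 72.3, 152 and 186 in progressing and 69.1, 90.1 and 78.0 in regressing tumours. Water replicate 2 was the highest library, and progressing overlapped water. The log2 fold change passed in regressing (-2.13, SE 0.52, edgeR adjusted p = 0.0358) and missed in progressing tumours (-1.34, SE 0.50, adjusted p = 0.108). Psph, the last enzyme of serine synthesis, had log2 fold changes of -1.33 (edgeR adjusted p = 0.104) and -0.09 (adjusted p = 0.926), and it overlaps Cct6a on the opposite strand.

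Slc7a5, the leucine transporter, was the gene with the largest fall in regressing tumours. It stood at 61.4, 264 and 86.3 CPM in water, 94.5, 46.1 and 92.6 in progressing and 11.9, 14.1 and 22.0 in regressing libraries. All regressing libraries lay under all others, and water and progressing overlapped. The log2 fold change was -3.10 (SE 0.57, edgeR adjusted p = 0.0158) against water and -2.28 (SE 0.55, adjusted p = 0.0286) against progressing tumours. Asns had a pattern like it, at 19.9, 101 and 70.2 CPM in water, 24.6, 39.5 and 81.5 in progressing and 5.14, 5.15 and 19.3 in regressing tumours, but just missed the threshold in regressing against water (log2 fold change -2.69, SE 0.74, edgeR adjusted p = 0.0504). It passed with DESeq2 (adjusted p = 0.00260). Slc3a2, the partner chain of Slc7a5, had a log2 fold change of -0.79 (edgeR adjusted p = 0.172). Over the same libraries the T-cell markers were higher after ATO, as given above. Against water 8 of 12 passed higher in regressing and 5 of 12 in progressing tumours (3.13% and 4.77% of all genes). The 8 B-cell markers summed to 286 to 3492 CPM in water, 6.35 to 41.1 in progressing and 134 to 216 in regressing tumours, and the 8 proliferation markers to 1881 to 2334, 2737 to 4024 and 1877 to 2569 CPM. Water replicate 2, the highest library for Slc7a5, Asns, Shmt2, Mthfd2, Psat1 and Phgdh, had the top B-cell sum (3492 CPM). It also had the fewest genes detected (21372) and the lowest TMM factor (0.747) of the W/W libraries. The part of the markers and of these library features in the metabolic values was not tested.

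**Figure D2:**
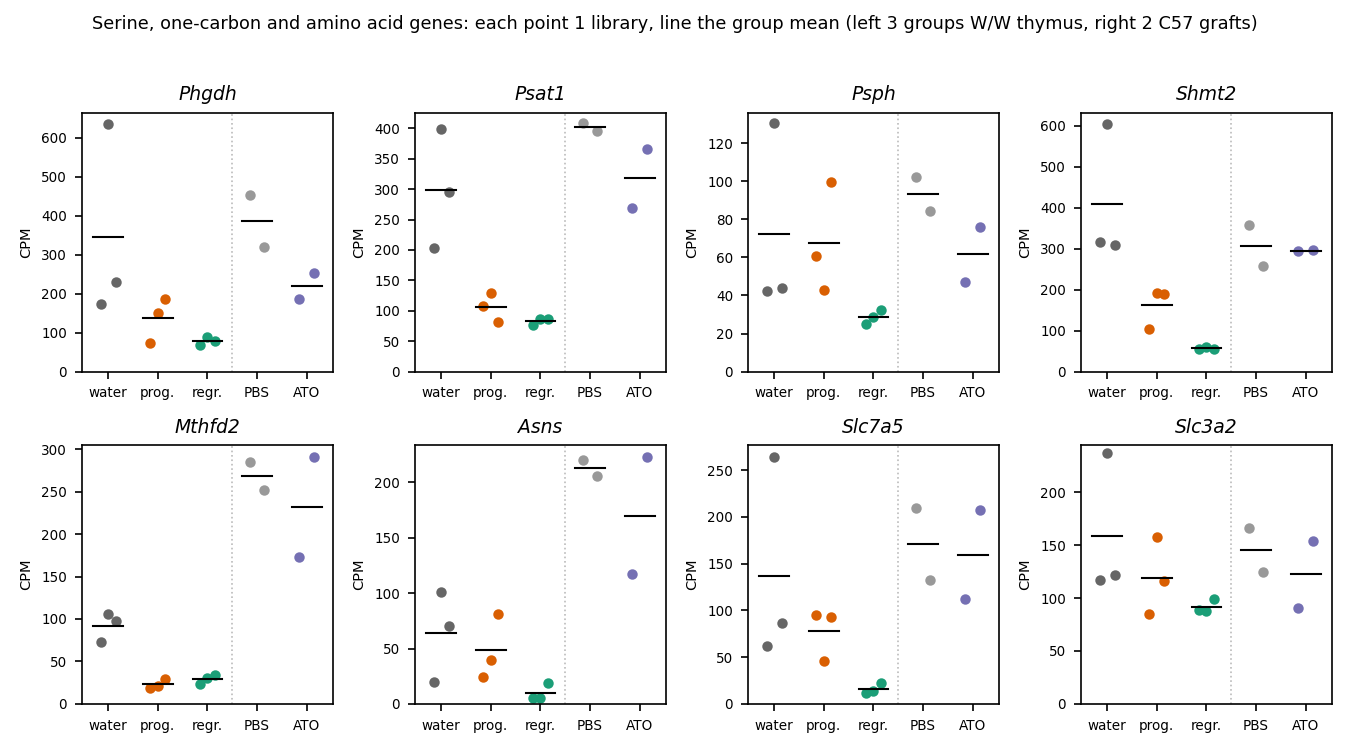
CPM of the 5 serine and one-carbon enzymes, Asns, Slc7a5 and Slc3a2 in each mouse library, with W/W water, progressing and regressing tumours left of the dotted line and C57 PBS and ATO tumours right of it (points are libraries, lines are means, axes start at 0). Regressing W/W libraries lie under all water libraries for each of the 8 genes, while C57 groups overlap for 5 of them.

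The regulators of the same arm did not pass against water. Atf4 stood at 187, 302 and 195 CPM in water, 124, 437 and 133 in progressing and 134, 160 and 153 in regressing tumours, with log2 fold changes of 0.02 (edgeR adjusted p = 0.982) and -0.61 (adjusted p = 0.415) against water. Progressing replicate 2 was the highest of the 9 libraries, and without it the progressing value was -0.76. Ddit3 stood at 20.1, 13.7 and 22.6 CPM in water, 25.2, 18.3 and 12.1 in progressing and 28.9, 28.0 and 28.5 in regressing tumours. The regressing libraries were the 3 highest, with a log2 fold change of 0.60 against water (SE 0.38, edgeR adjusted p = 0.327). Trib3 stood between 0.493 and 8.03 CPM. Of the 7 regulators, 0 passed by edgeR in either comparison with water, 1 had an unadjusted p under 0.05 in regressing tumours (Cebpg, higher) and 0 in progressing ones, and DESeq2 and limma-voom also called 0. Cebpg passed between the outcomes: it stood at 67.7, 27.6 and 44.5 CPM in progressing and 113, 125 and 129 in regressing tumours, with 77.9, 50.7 and 60.1 in water. Its log2 fold change was 1.39 (SE 0.35, edgeR adjusted p = 0.0315), and the regressing libraries lay above all others.

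Vldlr, the very-low-density lipoprotein receptor and an ATF4 target in stressed liver, was higher in regressing tumours, but the call rested on low counts. It had 34, 14 and 88 counts in water, 31, 33 and 63 in progressing and 154, 193 and 971 in regressing libraries, 9.53, 13.6 and 64.0 CPM in the last. Regressing replicate 3 was the highest. The log2 fold change was 3.32 (SE 0.87, edgeR adjusted p = 0.0448) against water and 3.22 (SE 0.87, adjusted p = 0.0377) against progressing tumours. Vegfa was highest in that library too (134 CPM, against 23.2 and 34.1 in the other regressing libraries), with a log2 fold change of 1.29 against water (edgeR adjusted p = 0.254). The 8 adipocyte markers summed to 5610 CPM in regressing replicate 3, and to 153 and 662 in the others, 120 to 1360 in progressing and 40.0 to 144 in water, where Lep had 0 counts in every library. Their part in these values was not tested. Vldlr lost its call in 5 of 6 fits that left out 1 library (all but water replicate 3; log2 fold changes 2.10 to 4.14) against water, and in all 6 against progressing tumours (1.97 to 3.65).

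In the ER arm, Xbp1 separated the outcomes. Xbp1 (chromosome 11, 5520659 to 5525893 on GRCm38), the transcription factor whose mRNA is spliced by IRE1, stood at 128, 123 and 114 CPM in water, 61.7, 43.2 and 57.3 in progressing and 181, 166 and 193 in regressing tumours. The 3 groups did not overlap. The log2 difference of regressing from progressing tumours was 1.73 (SE 0.26, edgeR adjusted p = 0.00924). Relative to water the log2 fold change was -1.17 with progression (SE 0.25, edgeR adjusted p = 0.0177) and 0.56 with regression (SE 0.25, edgeR adjusted p = 0.174). Gene counts do not show how much of the transcript was spliced. The 8 plasma-cell markers summed to 231 to 521 CPM in water, 42.2 to 150 in progressing and 485 to 716 in regressing tumours, and the 8 thymic epithelial markers to 146 to 986, 26.5 to 87.6 and 1155 to 1356. Of the plasma-cell list 6 genes were lower in progressing against water, as were 7.13% of all genes. In regressing against progressing 4 were higher and 1 lower, beside 6.45% and 6.18% of all genes. At most 1 gene of the list (Tnfrsf17) had 0 counts in any library. The part of these cells in the Xbp1 values was not tested.

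The chaperones and foldases were lower after ATO in part of the genes. Pdia4 stood at 212, 396 and 218 CPM in water, 52.1, 77.7 and 47.6 in progressing and 138, 98.3 and 143 in regressing tumours. The groups did not overlap, and it fell by 2.22 (SE 0.36, edgeR adjusted p = 0.00557) in progressing tumours and had a log2 fold change of -1.12 (SE 0.34, adjusted p = 0.0691) in regressing ones. Hyou1 stood at 249, 187 and 289 CPM in water and 89.5, 148 and 79.4 with progression, or -1.20 as log2 fold change (SE 0.33, edgeR adjusted p = 0.0386). Sdf2l1 stood at 48.0, 134 and 49.7 CPM in water and 22.4, 17.3 and 21.0 with regression, or -1.94 as log2 fold change (SE 0.43, edgeR adjusted p = 0.0281), and water replicate 2 was the highest library. The most abundant chaperones did not pass. Hspa5 stood at 767, 844 and 708 CPM in water, 338, 1088 and 372 in progressing and 439, 345 and 546 in regressing tumours (log2 fold changes -0.37 and -0.80, edgeR adjusted p = 0.640 and 0.269). Hsp90b1 (-0.81 and -0.54, edgeR adjusted p = 0.149 and 0.329) and Calr (-0.74 and -0.77, adjusted p = 0.187 and 0.174) were similar in size. In regressing tumours all libraries were below all water libraries for 11 of 18 ER-arm genes and above them for 3, where 20.9% and 19.3% of all genes showed that. Progressing replicate 2 held the highest Atf4 and Hspa5 levels of its group and its lowest TMM factor (0.794, against 1.07 and 1.03). In that library and in regressing replicate 3, the one highest in Vldlr and Vegfa, mitochondrial transcripts took 8.83% and 8.48% of counts. They took 2.08% to 4.86% in the other W/W libraries. The part of this share and of the TMM factor in the values was not tested. Without progressing replicate 2 the progressing log2 fold change of Hspa5 was -1.06 and that of Calr -1.11, the latter then passing.

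**Figure D3:**
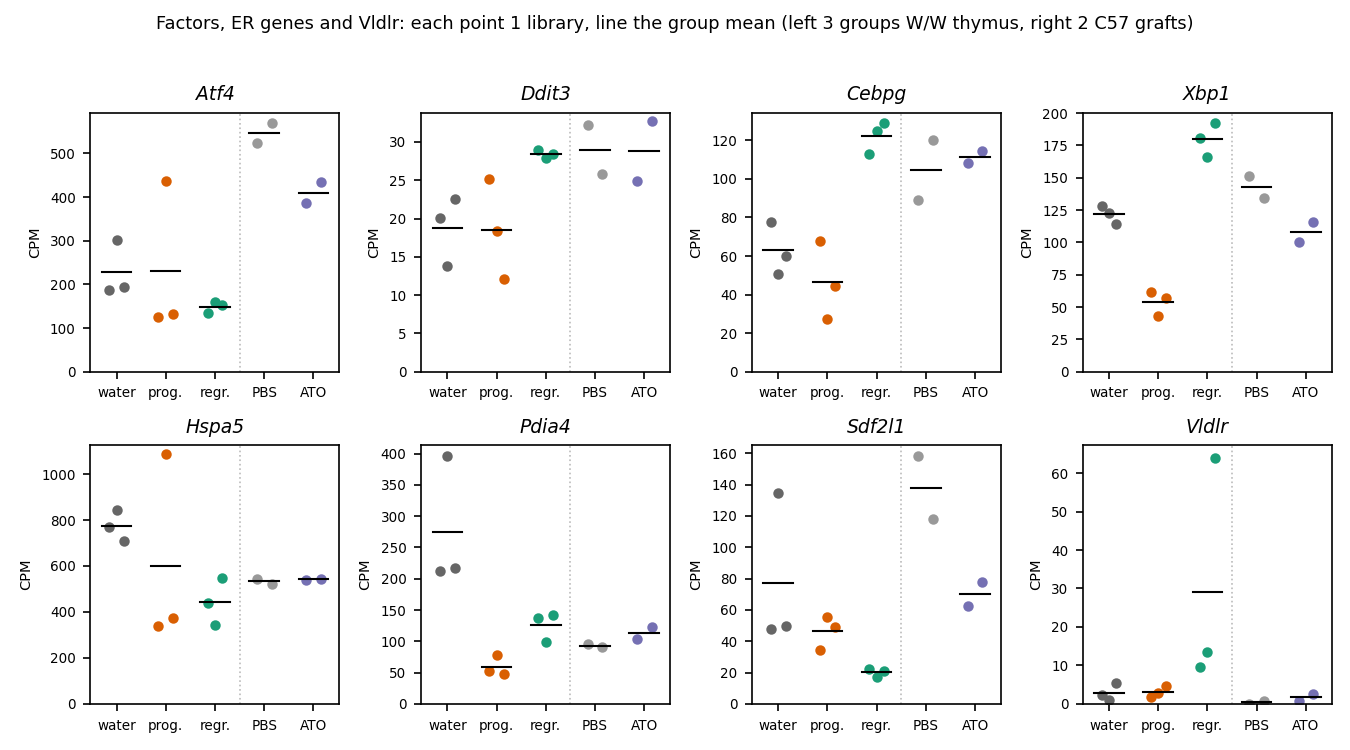
CPM of Atf4, Ddit3, Cebpg, Xbp1, Hspa5, Pdia4, Sdf2l1 and Vldlr in each mouse library, drawn as points with group means as lines and axes from 0. Xbp1 shows 3 separate W/W groups, with progressing at 43.2 to 61.7 and regressing at 166 to 193 CPM, while Atf4 and Hspa5 have a single high progressing library (437 and 1088 CPM).

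Most of these calls were lost in at least 1 of the fits that left out a library. Shmt2 in regressing against water, Mthfd2 and Pdia4 in progressing against water and Xbp1 between the outcomes passed in all 6 fits that left out 1 library. In regressing against water, Slc7a5, Psat1 and Mthfd2 were lost without regressing replicate 1 or 2 (log2 fold changes over the 6 fits of -3.45 to -2.12, -2.06 to -1.49 and -1.80 to -1.46). Phgdh and Sdf2l1 were lost without any 1 regressing library or without water replicate 2 (-2.45 to -1.26 and -2.19 to -1.19). In those fits calls were lost over the whole table: without regressing replicate 1 or 2 only 86 and 60 genes of all passed. Regressing replicates 1 and 2 were also the closest pair of libraries within any W/W group, with a mean chi-square per gene of 12.0 between their counts against 52.8 to 179 for the other pairs. Asns, which had missed, passed without water replicate 1 or regressing replicate 3 (-3.51 to -2.09). In progressing against water, Psat1 and Xbp1 were lost without progressing replicate 3 (-1.71 to -1.21 and -1.27 to -0.97). Shmt2 was lost without water replicate 2 or any 1 progressing library (-1.52 to -0.94), and Hyou1 without water replicate 1 or 3 or progressing replicate 1 or 3 (-1.45 to -1.02). Between the outcomes, Cebpg and Shmt2 passed only without progressing replicate 1 (1.15 to 1.76 and -1.73 to -1.33 over the 6 fits) and Slc7a5 only without progressing replicate 2 (-2.52 to -2.10). When the fit held progressing and water libraries alone, Psat1, Shmt2, Xbp1 and Hyou1 lost their calls there (edgeR adjusted p = 0.0528, 0.0942, 0.0718 and 0.101).

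In W/W tumours the medians of the arms lay close together. The median log2 fold change was -0.79 in the ATF4 arm and -0.73 in the ER arm in regressing against water (all genes -0.11), -0.41 and -0.60 in progressing against water (all genes -0.04), and -0.05 and -0.01 between the outcomes (all genes -0.07). The median hides a split inside the ATF4 arm: in regressing against water the 5 serine and one-carbon enzymes had a median of -1.84 and the 7 regulators 0.11. The mean log2(CPM + 1) of the ATF4 arm minus that of the ER arm was -1.95 ± 0.40 in water, -1.94 ± 0.25 in progressing and -2.16 ± 0.36 in regressing tumours (SD, n = 3 each), differences smaller than the spread within a group. With total counts as library size the log2 fold changes of regressing tumours were higher by 0.19 at the median gene.

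**Figure D4:**
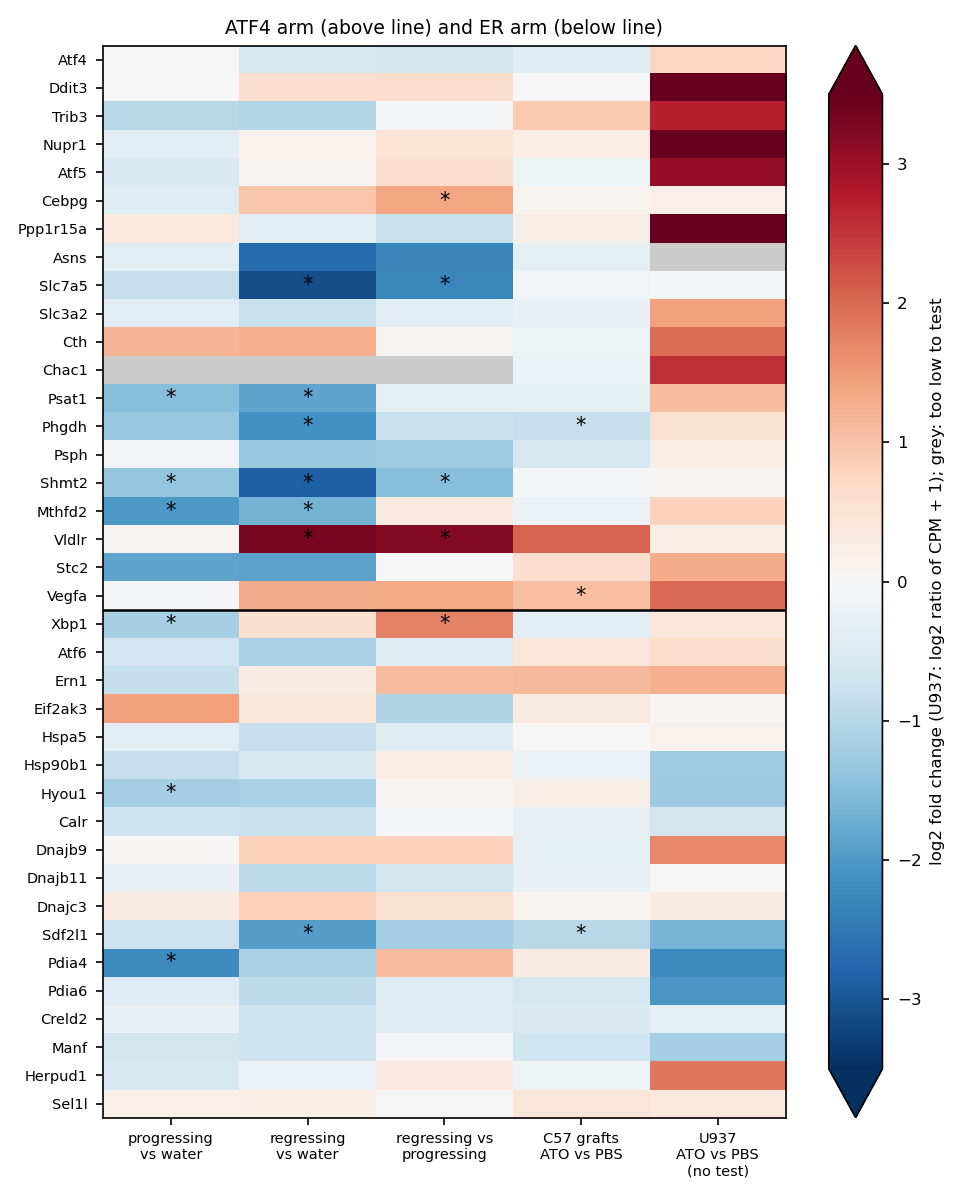
Log2 fold change of each of the 38 genes (rows) in the 4 tested mouse comparisons and in U937 (columns), red for higher and blue for lower, with an asterisk where edgeR's adjusted p was under 0.05 and grey where a gene was too low to test. The U937 column is red over most of the ATF4 arm and blue over the foldases, whereas the regressing against water column is blue from Psat1 to Mthfd2 and pale over the regulators.

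Other genes of the pathways were also lower in part in W/W tumours. Of 35 other integrated stress response genes, 9 passed in regressing against water, each lower (4.57% of all genes), led by Mthfd1l (-2.57), Aldh18a1 (-1.62) and the tRNA synthetase Yars (-1.498). In progressing against water 2 passed (7.13% of all genes were lower), Pck2, the mitochondrial PEP carboxykinase (-2.10), and Mthfd1l (-1.30). Mthfd1l stood at 106, 188 and 111 CPM in water, 48.5, 46.1 and 69.8 in progressing and 16.6, 24.1 and 27.4 in regressing tumours, and the 3 groups did not overlap. Between the outcomes Slc38a2, an amino acid transporter, was higher in regressing tumours (1.58), and 5 were lower, led by Eif2ak4, the amino acid sensing kinase GCN2 (-1.79), and Eif2s1, the subunit that these kinases phosphorylate (-1.52), with 6.45% higher and 6.18% lower over all genes. Of 24 other unfolded protein response genes, 2 were higher and 4 lower in regressing against water (3.13% and 4.57% of all genes). The counts were 1 and 1 in progressing against water, and 1 and 1 between the outcomes, near the shares of all genes (4.77% and 7.13%, 6.45% and 6.18%). The translocon subunit Sec61b (-1.77), the prolyl isomerase Ppib (-1.61) and the disulfide isomerase P4hb (-1.43) led the falls in regressing tumours, and Mbtps1, the protease that activates ATF6, rose (1.14). The 9 calls became 1, 0 and 1 without regressing replicates 1, 2 and 3 and 3 without water replicate 2, the 2 calls 1 without water replicate 3 or progressing replicate 2 or 3, and the 6 calls between the outcomes 3, 0, 0, 0 and 1 without progressing replicates 2 and 3 and regressing replicates 1, 2 and 3. The 6 calls of the unfolded protein response list in regressing tumours became 1 to 3 in each fit without a library, and the 2 in each other comparison 0 to 3.

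The C57 tumours asked the same question of ATO in a graft model. Of the 38 genes, all tested, 1 was higher and 2 lower after ATO, where 7.37% of 15468 genes passed higher and 6.57% lower. Vegfa stood at 27.8 and 45.6 CPM after PBS and 77.2 and 76.0 after ATO (log2 fold change 1.06, SE 0.25, edgeR adjusted p = 0.0225). Sdf2l1 stood at 158 and 118 CPM after PBS and 62.2 and 77.9 after ATO (log2 fold change -0.98, SE 0.22, edgeR adjusted p = 0.0192), and Phgdh at 453 and 319 against 186 and 253 CPM (-0.81, SE 0.24, adjusted p = 0.0431). The groups did not overlap for any of the 3, nor for 9 of 38 genes in the higher and 13 in the lower direction (31.7% and 30% of all genes). All 3 calls were lost without PBS replicate 1, Phgdh also without ATO replicate 1, with log2 fold changes of 0.73 to 1.44, -1.20 to -0.76 and -1.07 to -0.55 in the 4 fits. Phgdh also missed with total counts as library size (adjusted p = 0.0999), which moved the split of all calls from 52.9% to 77.6% higher and the median gene by 0.19.

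The regulators and chaperones of the C57 tumours did not pass, other than Sdf2l1. Trib3 stood at 10.7 and 10.4 CPM after PBS and 11.3 and 28.5 after ATO (log2 fold change 0.91, SE 0.41, edgeR adjusted p = 0.151). It passed without ATO replicate 1 (1.42, edgeR adjusted p = 0.00157), and its range over the 4 fits was 0.08 to 1.42. Atf4 stood at 523 and 570 CPM after PBS and 387 and 434 after ATO (log2 fold change -0.41, SE 0.20, edgeR adjusted p = 0.178), groups that did not overlap. Ddit3 stood at 32.2 and 25.8 against 24.9 and 32.7 CPM (-0.01, SE 0.26). Hspa5 stood at 543 and 523 against 541 and 543 CPM (0.02, SE 0.19, edgeR adjusted p = 0.951). Pdia6 (-0.62, edgeR adjusted p = 0.0538), Manf (-0.69, adjusted p = 0.0577) and Ern1 (1.13, adjusted p = 0.0758) came closest to the threshold. The arm medians were -0.12 and -0.20, with 0.04 over all genes. Of 34 other integrated stress response genes tested, 2 passed, both higher: Aldh1l2, a mitochondrial folate enzyme with 2 and 5 counts in the PBS and 16 and 42 in the ATO libraries (2.98), and the glutamine transporter Slc1a5 (1.05). Of 24 other unfolded protein response genes Syvn1 was higher (1.03), and Sec61b (-0.88) and Ppib (-0.87) lower. Over all genes 7.37% passed higher and 6.57% lower, and both lists lay near those shares. Without PBS replicate 1, 0 genes of either list passed, and without ATO replicate 1, 8 of the stress response list did. Fibroblast markers summed to 501 and 255 CPM after PBS and 656 and 1685 after ATO, macrophage markers to 906 and 683 against 402 and 347, and mitochondrial transcripts took 0.521% and 1.02% against 5.98% and 4.03% of counts. Their part in the Vegfa, Sdf2l1 and Phgdh values was not tested.

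**Figure D5:**
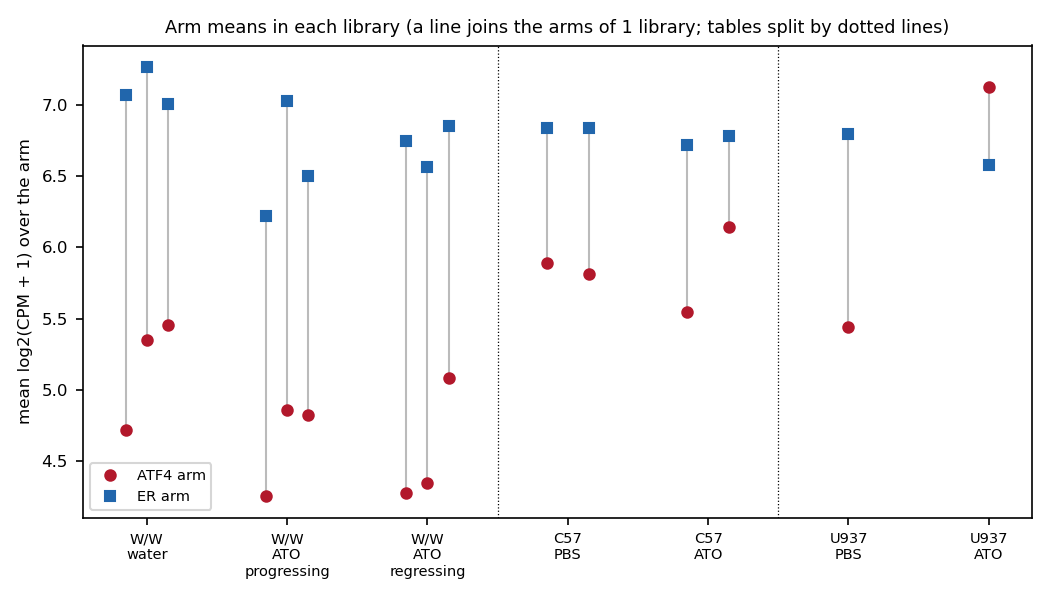
Mean log2(CPM + 1) over the ATF4 arm (circles) and the ER arm (squares) in each of the 15 libraries, joined by a line within a library. The ATF4 arm lies under the ER arm in every mouse library and in U937 after PBS, and above it only in U937 after ATO, and levels are set side by side across separately normalized tables.

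Per length of transcript, the ER chaperones were the most abundant of the 38 genes in W/W tumours. On the FPKM scale deposited by the authors, Hsp90b1 (247), Calr (219) and Hspa5 (172) led in the water group, followed by Phgdh (119) and Shmt2 (118), as means of 3 libraries. Their ranges of 179 to 304, 180 to 243 and 146 to 188 overlapped, so their order is not resolved. Atf4 was at 88.5 FPKM there, and Vldlr (0.30), Chac1 (0.593) and Cth (0.643) were lowest. In regressing tumours Hsp90b1 (196), Calr (150) and Hspa5 (115) still led, and the next genes were Atf4 (69.5) and Xbp1 (60.9). In the C57 tumours Atf4 was the most abundant, at 217 FPKM after PBS and 186 after ATO. In U937 CALR led at 684 FPKM after PBS and 439 after ATO, and the median of the ATF4 arm went from 16.4 to 45.2 FPKM while that of the ER arm went from 24.6 to 22.4.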

How the data were processed

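RNA from 15 samples was extracted with TRIzol and made into libraries with a SMARTer kit, per the labels' protocols. FastQC 0.10.1, cutadapt 1.9.1 and HISAT2 2.0.1, with GRCm38, are named in the submitters' processing notes. The counter, its use of strand and the annotation are not given in the sources used here. The deposited tables hold read counts per gene from the authors, used for every test, and FPKM values, used only to compare levels between genes. The W/W libraries were fitted together as 3 groups, and C57 alone, with filterByExpr, TMM and the quasi-likelihood test of edgeR 4.0.16 (adjusted p under 0.05), after tests on simulated data. U937 was described as log2(CPM + 1) ratios of at least 1.5-fold among genes with a mean of 1 CPM. DESeq2 1.42.0, limma-voom (limma 3.58.1), other scalings and left-out libraries were alternatives, and total counts as library size were added after seeing the data. The gene lists were chosen with earlier results of these data known. Values per library were given for genes of each arm chosen by name and for genes past the threshold, and genes of the wider lists where they passed, up to 3 in each direction. No pairing by replicate number was seen in W/W. Correlations of deviations were -0.124 to 0.153 between same-numbered libraries and -0.172 to 0.171 between the others. In C57 they were -0.117 and 0.117, which mirror each other with 2 libraries a group, so pairing could not be judged there. Gene starts and ends in the U937 table equal those of GENCODE v44 for 98.1% of genes and in the W/W table those of GENCODE vM21 for 98.9%. For C57 they do so for 2.6%, so no C57 coordinates are given.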

Additional observations from a re-analysis of the deposited data

Results flagged for a closer look

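Between the 2 ATO groups, 5 genes differed by edgeR's test of regressing against progressing tumours, a comparison that holds no water library. That is 5 of 37 tested, near the 12.6% of all genes that passed there in either direction. Xbp1 (1.73), Cebpg (1.39) and Vldlr (3.22) were higher in regressing tumours on the log2 scale, and Slc7a5 (-2.28) and Shmt2 (-1.501) were lower. Xbp1 kept its call in all 6 fits that left out 1 library, Cebpg, Slc7a5 and Shmt2 in 1 fit each and Vldlr in 0.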

How the results depend on the processing

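Over all settings no value changed sign past a threshold. Counts of calls that moved by over 1.5 times are given for all genes, for the 38 stress genes (here members) and for the wider stress response and unfolded protein response lists, in that order. In regressing against water (1396 genes called), DESeq2 called 3354 genes, 2 members higher, 10 lower and 15 of the stress response list. Testing without a filter on low counts called 2689 genes. Limma-voom and total counts as library size each called 0 members higher. In progressing against water (2157), DESeq2 called 3733 genes, 1 member higher and 5 of each list, no filter called 3594, 1 member higher, 5 and 4, and fitting the compared groups alone called 882, 2 members lower, 0 and 1. In regressing against progressing (2289), DESeq2 called 4121 genes and 10 and 5 of the lists, no filter called 3621 and 5 members higher, limma-voom 1 of the unfolded protein response list, and the compared groups alone 5 members higher and 5 lower. In C57 (2157), DESeq2 called 4 members lower and 5 of the stress response list. No filter called 3274 genes, 2 members higher, 4 lower and 4 of that list, with an ER-arm median of -0.25, and total counts 2 higher, 1 lower and 5 of that list, with an ER-arm median of -0.00454.

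With the replicate number as a replicate block, 19 of 21 called members kept their call. The exceptions were Hyou1 in progressing tumours (edgeR adjusted p = 0.0750) and Phgdh in C57 (edgeR adjusted p = 0.0810), and the counts were 1405 genes and 1 of the unfolded protein response list in progressing against water and 1350 genes and 1 member lower in C57. No pairing by number was seen in W/W, and in C57 it could not be judged.

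Leaving out 1 library gave these ranges. In regressing against water 60 to 1190 genes, 0 to 1 members higher, 1 to 7 lower and 0 to 11 and 1 to 3 of the lists were called. In progressing against water the ranges were 907 to 2557, 0 to 1, 2 to 6, 1 to 3 and 1 to 3, with an ER-arm median of -0.83 to -0.27 and a difference of arm medians of -0.20 to 0.24. Between the outcomes they were 177 to 2000, 1 to 2, 0 to 1, 0 to 7 and 0 to 2, with an ER-arm median of -0.20 to 0.42. In C57 they were 685 to 2420, 0 to 5, 0 to 5, 0 to 8 and 0 to 3, with medians of -0.47 to 0.14 (ATF4 arm) and -0.23 to -0.11 (ER arm) and a difference of -0.29 to 0.29. In U937 the ATF4-arm median was 1.44 and 1.09 with pseudocounts of 0.5 and 5, 1.06 with TMM and 1.21 with no minimum level, and the difference of the arms was 1.997 with means and 1.78 without the sensors. The causes of these changes were not tested. The lowest members (Chac1 in W/W, ASNS in U937) had too few counts to be compared.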

Other observations

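The aminoacyl-tRNA synthetases, cytosolic enzymes that load amino acids onto tRNAs and include many ATF4 targets, were lower in part in regressing tumours. All 12 had a negative log2 fold change against water, from -1.83 to -0.67 with a median of -1.29, and 6 passed edgeR's test at adjusted p under 0.05, where 4.57% of all genes passed lower. In 10 of 12 every regressing library lay under every water library, as in 20.9% of all genes. Without regressing replicate 1, 2 or 3, only 1, 0 and 1 genes of the whole stress response list, which holds these 12, passed. The T-cell and B-cell markers differ between the same libraries (T-cell sums of 1375 to 1783 CPM in water and 6339 to 12302 in regressing tumours, B-cell sums of 286 to 3492 and 134 to 216), and their part was not tested. Against progressing tumours the median was -0.94 and 2 passed, each lower (6.18% of all genes). In progressing against water the median was -0.35, and edgeR called 0 (2 at an unadjusted p under 0.05, 0 by DESeq2 and 0 by limma-voom). In U937 4 of 12 were at least 1.5-fold higher, a share near the 28.2% of all genes, with WARS1 at 2.96-fold, and LARS1 was 1.97-fold lower.

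Edem1, a lectin that hands misfolded glycoproteins to degradation, was higher after ATO in W/W tumours. It stood at 124, 157 and 106 CPM in water, 635, 545 and 1380 in progressing and 1229, 1307 and 727 in regressing tumours. Every ATO library lay above every water library, with log2 fold changes of 2.73 (SE 0.44, edgeR adjusted p = 0.00588) and 3.08 (SE 0.45, edgeR adjusted p = 0.00848). In C57 tumours its log2 fold change was -0.01 (edgeR adjusted p = 0.971). Its level there was 1017 and 920 CPM after PBS and 973 and 944 after ATO, in a separately normalized table. T-cell markers summed to 1375 to 1783 CPM in water, 4422 to 4905 in progressing and 6339 to 12302 in regressing tumours. They summed to 4613 to 8383 CPM in the C57 tumours. The part of these cells in the Edem1 values was not tested.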
